A study of Sus scrofa with 9 samples.

Results

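The genes described here are transcription factors that drive fibroblasts towards fat cells, together with proteins that bring fatty acids into the cell or carry them inside it. They were taken by gene symbol from a list of 10: CEBPA, CEBPB, CEBPD, PPARG, FABP3, FABP4, FABP5, LPL, CD36 and ADIPOQ. Of these, 9 were matched to one of the 30477 gene IDs in the files. CD36, a fatty acid receptor of the cell surface, was not matched and was not analysed here. Of the matched genes, 5 passed the filter for testing (3 or more libraries at 1 FPKM or above), as did 11063 genes in all.

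Porcine embryonic fibroblasts, connective tissue cells grown from pig embryos, were sampled at 0 h of insulin, which is the control, and again after 48 h and 72 h with it. Total RNA was depleted of ribosomal RNA and sequenced, with 3 libraries at each time that the submitters call biological replicates. No genotype, breed, insulin dose or culture medium was given in the sources used here. Cultures kept without insulin for 48 h or 72 h were not analysed here, so insulin and time in culture cannot be told apart in any comparison with 0 h. Levels are FPKM, fragment counts divided by the length assigned to the gene and by library size, and can be compared between genes. Changes are differences of log2(FPKM + 1), which understates the change of genes at low levels.

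In the cell culture models from which fat cell formation is known, C/EBP beta and C/EBP delta come up early after hormones are added, and they activate the genes of PPAR gamma and C/EBP alpha. The last pair then maintain each other and switch on the genes of the mature fat cell, among them FABP4, LPL, CD36 and ADIPOQ. Insulin is a standard component of the mixtures used, usually beside a glucocorticoid and an agent that raises cyclic AMP. The fatty acid binding proteins are small proteins of the cytosol that hold a fatty acid in a barrel-shaped pocket: FABP4 is the form of fat cells, FABP3 that of heart and muscle, and FABP5 that of skin and many other tissues.

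The early regulators CEBPB and CEBPD and the carriers FABP3 and FABP5 rose at both 48 h and 72 h. LPL was higher at 72 h only. PPARG, CEBPA, FABP4 and ADIPOQ, the genes of the later steps, were at 1.37 FPKM or less in every library, and PPARG was lowest at 72 h. At 48 h against 0 h, 4 of the 5 tested genes were called higher (Benjamini-Hochberg adjusted p below 0.05 in limma) and none lower, beside 27.6% of all tested genes called higher and 22.4% lower. At 72 h against 0 h all 5 were called higher, LPL among them, which passed the filter only through its 72 h libraries, beside 23.0% higher and 22.5% lower over all tested genes. Between 48 h and 72 h, 2 were called higher at 72 h, FABP3 and LPL, where 9.17% of all tested genes were higher and 16.3% lower. LPL is in this count, and in that of the F-test, only through its 72 h libraries. By the F-test over the 3 times all 5 differed, as did 60.6% of all tested genes, so a difference over time is on its own no mark of these genes. The members were chosen with earlier results of these data known. The counts above are therefore a description and no test of the members as a group.

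**Figure D1:**
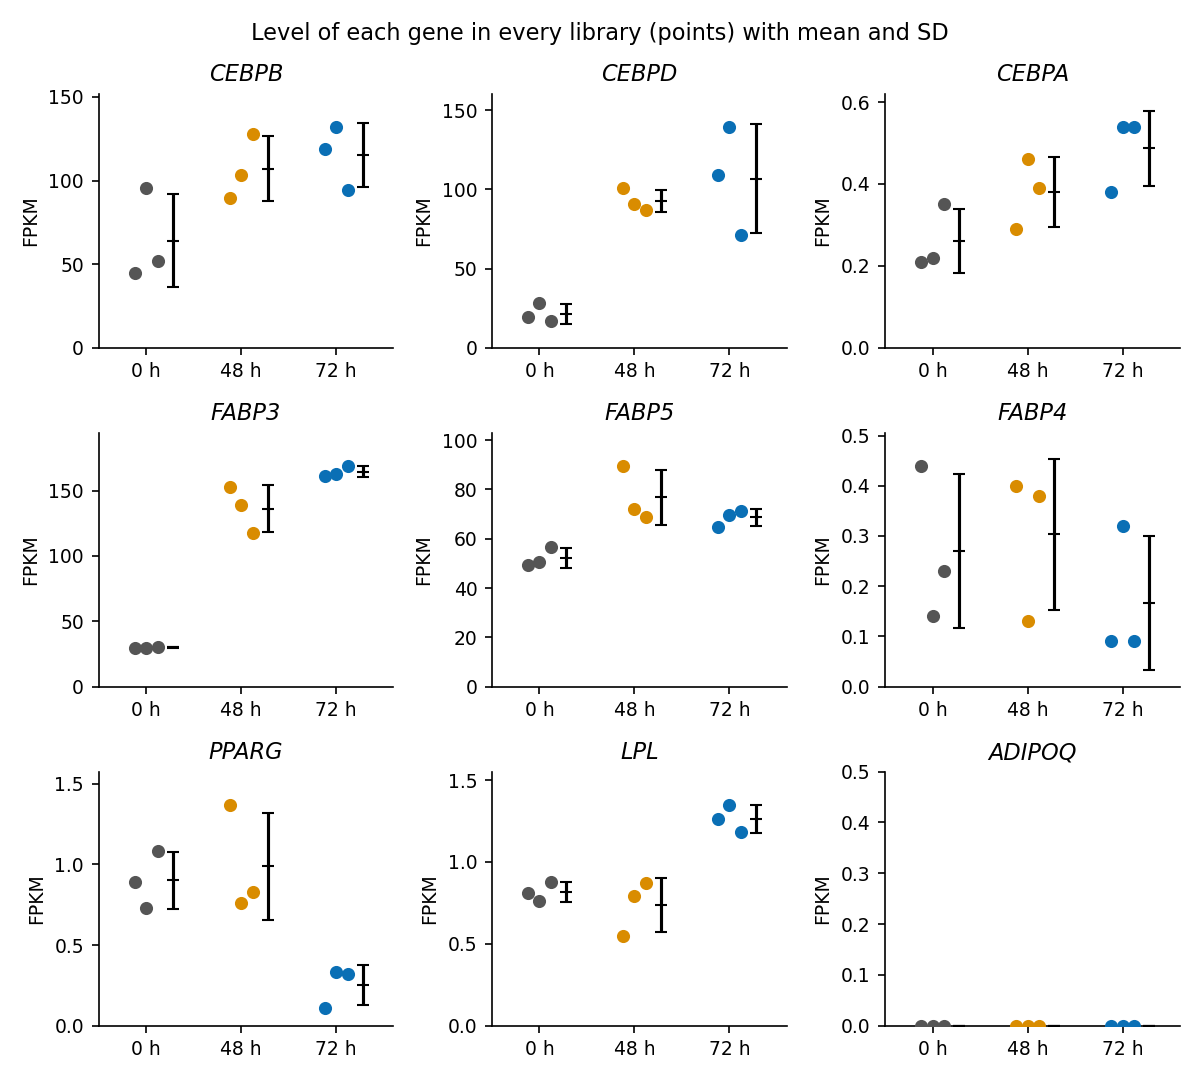
FPKM of each of the 9 matched genes (panels, each with its own linear axis) in every library (points) at 0 h, 48 h and 72 h, with bars for the mean and SD of 3 libraries. CEBPB, CEBPD, FABP3 and FABP5 are at 16.6 FPKM or more with higher means after 0 h, while the other genes stay between 0 and 1.37 FPKM.

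CEBPD (ENSSSCG00000032367, chromosome 4, 79872863 to 79874481 of Sscrofa11.1), which encodes C/EBP delta, was the lower of the early pair at 0 h. It was at 19.1, 28.5 and 16.6 FPKM in the 0 h libraries, at 101, 90.6 and 87.0 FPKM in the 48 h libraries, and at 109, 139.7 and 71.1 FPKM in the 72 h libraries. Every library after insulin lay above every 0 h library. The means were 92.8 ± 7.09 FPKM at 48 h and 107 ± 34.3 FPKM at 72 h, against 21.4 ± 6.25 FPKM at 0 h (SD, n = 3 each). The log2 change was 2.10 ± 0.23 (SE, limma adjusted p = 4.88e-05) at 48 h and 2.25 ± 0.23 (limma adjusted p = 1.80e-05) at 72 h. Among the 11063 tested genes these were the 5th highest change at 48 h and the 14th highest at 72 h. Between 72 h and 48 h the log2 difference was 0.15, with a 95% interval of -0.35 to 0.65 (limma adjusted p = 0.654), so a further change of either sign within that interval was not resolved. The 72 h libraries were the most spread: replicate 3 lay 0.61 on the log2 scale below both others, a gap that 39 of the 11063 genes matched or exceeded in that library.

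CEBPB (ENSSSCG00000034207, chromosome 17, 51722633 to 51723673), which encodes C/EBP beta, was already at 44.6, 95.7 and 51.9 FPKM in the 0 h libraries. It was at 89.7, 104 and 128 FPKM in the 48 h libraries and at 119, 132 and 94.3 FPKM in the 72 h libraries. Here the groups overlapped, because 0 h replicate 2 stood as high as the lowest libraries after insulin. The means were 107 ± 19.4 FPKM at 48 h and 115 ± 19.3 FPKM at 72 h, against 64.1 ± 27.6 FPKM at 0 h. The log2 change was 0.80 ± 0.24 (limma adjusted p = 0.0193) at 48 h and 0.90 ± 0.24 (limma adjusted p = 0.0112) at 72 h. For 72 h against 48 h it was 0.11, with an interval of -0.43 to 0.64 (limma adjusted p = 0.775).

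The size of the CEBPB change rests on which 0 h libraries are used, and so does its call at 48 h. In 0 h replicate 2, CEBPB lay 0.87 on the log2 scale above both other libraries, a gap reached by 20 of the 11063 genes (0.181%), and CEBPD lay 0.55 above them, reached by 53 genes. Without that library the change of CEBPB was 1.12 at 48 h and 1.23 at 72 h. Without 0 h replicate 1 it was 0.58 at 48 h and not called (limma adjusted p = 0.0745), and without 0 h replicate 3 it was 0.69 and not called (limma adjusted p = 0.0711). It was also not called at 48 h without 48 h replicate 3 (0.66, limma adjusted p = 0.0616). At 72 h against 0 h the change of CEBPB was called under all 19 alternatives, at 0.69 to 1.23 (highest limma adjusted p = 0.0458). The ratio of CEBPD to CEBPB was 0.429, 0.298 and 0.320 at 0 h, 1.12, 0.875 and 0.679 at 48 h, and 0.918, 1.06 and 0.755 at 72 h. CEBPD stood below CEBPB in each 0 h library and closer to it, or above it, in each later one.

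Of 3 other tested C/EBP genes, 2 rose at 48 h and 1 at 72 h, with none lower. DDIT3, which encodes the stress-induced member that blocks C/EBP binding, rose by 0.97 at 48 h (limma adjusted p = 4.32e-06) and by 0.49 at 72 h (limma adjusted p = 0.000246), with means of 44.7 FPKM at 0 h, 88.1 FPKM at 48 h and 63.3 FPKM at 72 h. CEBPG, a partner without an activation domain, rose by 0.16 at 48 h (limma adjusted p = 0.0391), a call that equal FPKM sums end (0.04, limma adjusted p = 0.687), and its change at 72 h was 0.10. CEBPZ, a nucleolar protein that shares the symbol's root, changed by -0.11 at 48 h and -0.16 at 72 h and was not called. CEBPE, the form of granulocytes, was listed at 0 in every library.

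CEBPA (ENSSSCG00000002866, chromosome 6, 43083200 to 43085884) is the C/EBP gene of the later step. It was at 0.21, 0.22 and 0.35 FPKM in the 0 h libraries, at 0.29, 0.46 and 0.39 FPKM in the 48 h libraries and at 0.38, 0.54 and 0.54 FPKM in the 72 h libraries. The 72 h libraries lay above those of 0 h, by a narrow margin. CEBPA did not pass the filter. In the fit without a filter, over 19679 genes, its log2 change was 0.24 ± 0.07 at 72 h against 0 h (limma adjusted p = 0.0328), where 12.5% of genes were called higher and 12.2% lower, and 0.13 at 48 h (limma adjusted p = 0.205). At 72 h CEBPA was at 0.487 ± 0.0924 FPKM, where CEBPB was at 115 FPKM and CEBPD at 107 FPKM.

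PPARG (ENSSSCG00000011579, chromosome 13, 68301566 to 68433951) encodes PPAR gamma, the nuclear receptor without which fat cells do not form. It was at 0.89, 0.73 and 1.08 FPKM in the 0 h libraries, at 1.37, 0.76 and 0.83 FPKM in the 48 h libraries and at 0.11, 0.33 and 0.32 FPKM in the 72 h libraries. The 0 h and 48 h libraries overlapped, and all 72 h libraries lay below them. PPARG reached 1 FPKM in 2 libraries and so did not pass the filter. Without the filter its log2 change was -0.60 ± 0.13 at 72 h against 0 h (limma adjusted p = 0.00978) and -0.66 ± 0.13 at 72 h against 48 h (limma adjusted p = 0.0160). In that fit 3.76% of the 19679 genes were called higher and 7.08% lower at 72 h against 48 h. At 48 h against 0 h the change was 0.06 (limma adjusted p = 0.812). At these levels 1 FPKM is also the pseudocount, so the ratio of the means says more: 0.253 ± 0.124 FPKM at 72 h, against 0.900 ± 0.175 FPKM at 0 h.

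Of 3 other tested PPAR and RXR genes, 2 rose at both times. PPARD, which encodes the PPAR form found in most tissues, rose by 0.50 at 48 h (limma adjusted p = 0.00457) and 0.52 at 72 h (limma adjusted p = 0.00347), with means of 7.78 FPKM at 0 h, 11.4 FPKM at 48 h and 11.7 FPKM at 72 h. RXRA, the gene of a partner with which every PPAR binds DNA, rose by 0.54 at 48 h (limma adjusted p = 0.000472) and 0.65 at 72 h (limma adjusted p = 0.000106). RXRB changed by 0.11 and 0.01 and was not called. PPARA, at means of 0.603 to 0.780 FPKM, and RXRG, at 0.0333 to 0.227 FPKM, were below the filter.

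**Figure D2:**
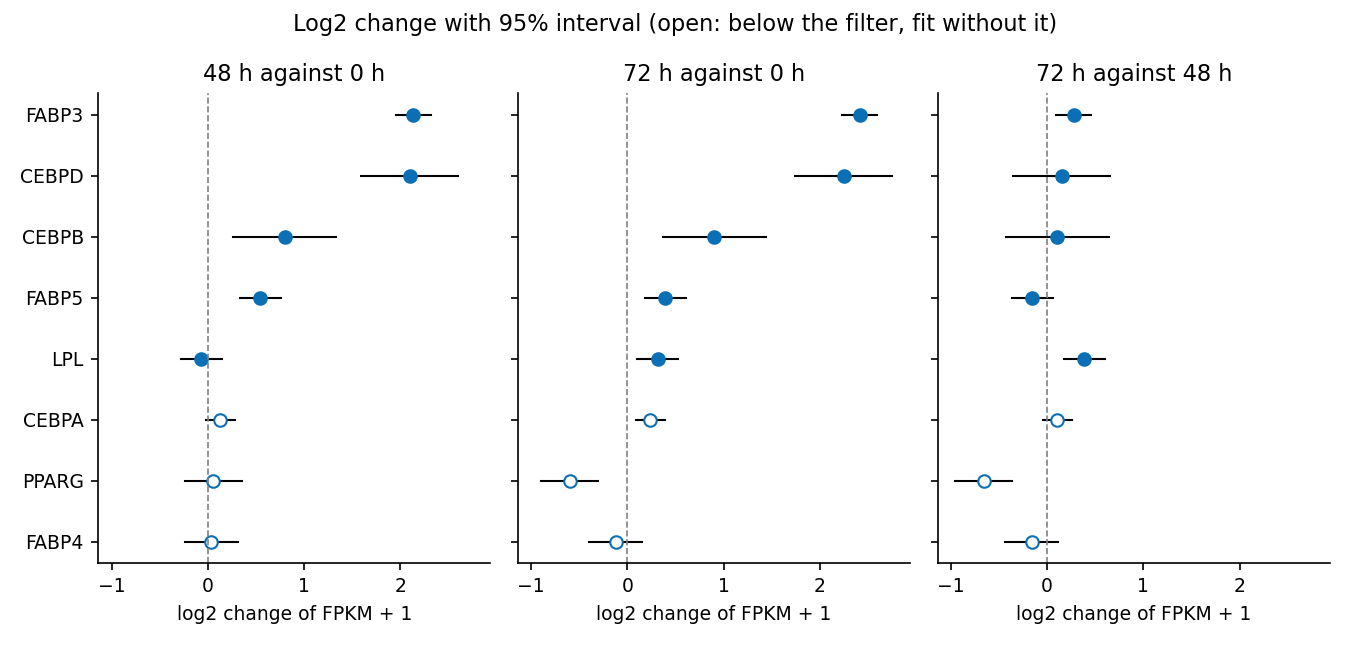
Log2 change of FPKM + 1 with its 95% interval for 8 of the genes in the 3 comparisons; ADIPOQ, at 0 throughout, is not drawn. Filled points are from the fit to 11063 genes and open points, for genes below the filter, from the fit to 19679 genes: FABP3 and CEBPD lie above 2 in both comparisons with 0 h, and PPARG lies below 0 at 72 h.

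FABP3 (ENSSSCG00000036883, chromosome 6, 87943003 to 87950708) had changes as high as those of CEBPD and libraries that lay close together at 0 h and 72 h. It was at 29.6, 29.8 and 30.7 FPKM in the 0 h libraries, at 152, 139 and 117 FPKM in the 48 h libraries and at 161, 163 and 169 FPKM in the 72 h libraries. No libraries of any pair of times overlapped. The log2 change was 2.14 ± 0.08 (limma adjusted p = 7.84e-08) at 48 h and 2.41 ± 0.08 (limma adjusted p = 1.46e-08) at 72 h, the 4th and the 7th highest of the 11063 tested genes. FABP3 averaged 164 ± 4.13 FPKM at 72 h and 136 ± 17.7 FPKM at 48 h, a log2 difference of 0.28 ± 0.08 (limma adjusted p = 0.0323). That last call was lost when any of the 72 h libraries or 48 h replicate 2 was left out. Among all 30477 gene IDs, ordered by mean FPKM, FABP3 was in place 2439 at 0 h, 555 at 48 h and 430 at 72 h.

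FABP5 (ENSSSCG00000006153, chromosome 4, 55277831 to 55282585) was at 49.3, 50.4 and 56.7 FPKM in the 0 h libraries, at 89.6, 72.1 and 68.7 FPKM in the 48 h libraries and at 64.7, 69.8 and 71.3 FPKM in the 72 h libraries. The libraries of both later times lay above those of 0 h and overlapped each other. The log2 change was 0.54 ± 0.10 (limma adjusted p = 0.00112) at 48 h and 0.39 ± 0.10 (limma adjusted p = 0.00706) at 72 h. For 72 h against 48 h it was -0.15, with an interval of -0.37 to 0.06 (limma adjusted p = 0.262).

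FABP4 (ENSSSCG00000040681, chromosome 4, 55096400 to 55101209) was at 0.44, 0.14 and 0.23 FPKM in the 0 h libraries, at 0.40, 0.13 and 0.38 FPKM in the 48 h libraries and at 0.09, 0.32 and 0.09 FPKM in the 72 h libraries. The 3 groups overlapped throughout. In the fit without a filter the log2 change was 0.04 at 48 h, with an interval of -0.24 to 0.31 (limma adjusted p = 0.872), and -0.12 at 72 h, with an interval of -0.39 to 0.15 (limma adjusted p = 0.536). FABP4 and FABP5 are neighbours in the genome, with PMP2, another gene of the family, between them: the gaps are 15049 bp from FABP4 to PMP2 and 136211 bp from PMP2 to FABP5. Of these 3 genes FABP5 alone was above 1 FPKM, and PMP2 averaged at most 0.0633 FPKM at any time.

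FABP3 and FABP5 changed places. The ratio of FABP3 to FABP5 was 0.600, 0.591 and 0.541 at 0 h, 1.70, 1.92 and 1.71 at 48 h, and 2.49, 2.34 and 2.37 at 72 h. FABP5 was the more abundant transcript in each 0 h library and FABP3 in each later one. The summed FPKM of FABP3, FABP4 and FABP5 was 79.3 to 87.7 at 0 h, 186 to 242 at 48 h and 226 to 240.4 at 72 h, and FABP3 held 35.0% to 37.3%, 62.9% to 65.7% and 69.9% to 71.3% of it at these times.

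**Figure D3:**
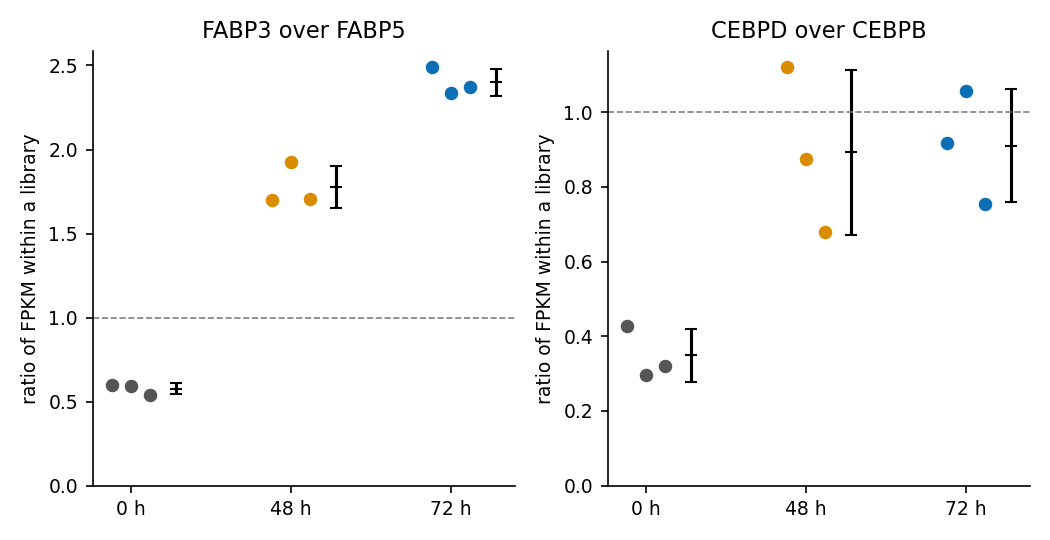
Ratio of FABP3 to FABP5 and of CEBPD to CEBPB in every library (points) at 0 h, 48 h and 72 h, with bars for the mean and SD of 3 libraries and a dashed line at a ratio of 1. Both ratios are below 1 in all 0 h libraries, and the ratio of FABP3 to FABP5 is between 1.70 and 2.49 in the later ones.

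Among other carriers of the same protein fold, CRABP1, which binds retinoic acid, rose by 1.51 at 48 h (limma adjusted p = 5.58e-06) and 1.01 at 72 h (limma adjusted p = 5.00e-05), with means of 15.9 FPKM at 0 h, 47.3 FPKM at 48 h and 33.2 FPKM at 72 h. CRABP2, its close relative, was the most abundant carrier at 463 FPKM at 0 h, 604 FPKM at 48 h and 489 FPKM at 72 h, and rose at 48 h by 0.38 (limma adjusted p = 0.00294), with a change of 0.08 at 72 h (limma adjusted p = 0.452). FABP7, the form of developing brain, averaged 0.107 FPKM at 0 h, 0.420 FPKM at 48 h and 0.860 FPKM at 72 h and was below the filter. FABP9 averaged at most 0.543 FPKM, FABP2 was at or near 0, and FABP6 was listed at 0 in every library.

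LPL (ENSSSCG00000040631, chromosome 14, 4104761 to 4134964) encodes lipoprotein lipase, the secreted enzyme that frees fatty acids from circulating triglyceride. It was at 0.81, 0.76 and 0.88 FPKM in the 0 h libraries, at 0.55, 0.79 and 0.87 FPKM in the 48 h libraries and at 1.26, 1.35 and 1.18 FPKM in the 72 h libraries. All 72 h libraries lay above all others. LPL passed the filter only through its 72 h libraries, so its call there is a description. LPL is in the counts of called genes but adds no support to them. The log2 change was 0.32 ± 0.10 at 72 h against 0 h (limma adjusted p = 0.0202) and 0.39 ± 0.10 at 72 h against 48 h (limma adjusted p = 0.0163), and -0.07 at 48 h (limma adjusted p = 0.576), with an interval of -0.28 to 0.14. The call at 72 h against 0 h was lost without 0 h replicate 1 (limma adjusted p = 0.0532), 0 h replicate 2 (limma adjusted p = 0.0667) or 72 h replicate 2 (limma adjusted p = 0.0611), and that against 48 h without 48 h replicate 1 (limma adjusted p = 0.0515). With a pseudocount of 0.1 the LPL changes were 0.57 and 0.72.

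Among 9 tested partners of LPL, which fold, anchor, inhibit or replace it, 5 rose and 3 fell at 48 h (median 0.23) and 5 rose and 1 fell at 72 h (median 0.17). Over all tested genes 27.6% were higher and 22.4% lower at 48 h, and 23.0% and 22.5% at 72 h. APOE, a lipoprotein component, rose by 0.61 at 48 h and 1.26 at 72 h (limma adjusted p = 0.000665 and 2.69e-06), but it was below 1 FPKM in each 0 h library and passed the filter only through the later ones, so its rises are a description. ANGPTL4, a secreted inhibitor of LPL, rose by 0.85 and 0.73 (limma adjusted p = 0.000499 and 0.00111). VLDLR, a lipoprotein receptor, fell by 0.48 and 0.55 (limma adjusted p = 0.000278 and 8.50e-05). LMF1, which LPL needs in order to mature, rose by 0.63 and 0.45 (limma adjusted p = 0.000252 and 0.00171). SEL1L, another protein that LPL needs in order to mature, had a log2 change of -1.004 at 48 h (limma adjusted p = 0.00844), with a mean of 41.9 FPKM at 48 h, against 79.1 FPKM at 0 h, and its change at 72 h was -0.09 (limma adjusted p = 0.800). Its 48 h libraries were spread, at 23.1, 41.7 and 60.9 FPKM, and without 48 h replicate 1 the change was -0.64. GPIHBP1, which holds LPL on the wall of capillaries, averaged 0.0633 FPKM at 48 h and was listed at 0 at the other times.

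ADIPOQ (ENSSSCG00000039103, chromosome 13, 124633906 to 124646237) encodes adiponectin, a hormone made by fat cells. It was listed at 0 in all 9 libraries, so no change can be given.

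The order of levels changed with time. At 0 h CEBPB, FABP5, FABP3 and CEBPD led in that order, of which CEBPB and FABP5 overlapped. At 48 h the order was FABP3, CEBPB, CEBPD and FABP5, with each overlapping the next. At 72 h it was the same, with FABP3 apart from CEBPB, and with the libraries of CEBPB and CEBPD, and of CEBPD and FABP5, overlapping. PPARG and LPL, which overlapped at 0 h and 48 h, were apart at 72 h, where LPL was at 1.26 ± 0.0851 FPKM and PPARG at 0.253 FPKM, below CEBPA.

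Over the matched genes, libraries without overlap with those of 0 h were found for CEBPD, FABP3 and FABP5 at 48 h. At 72 h they were found for these and for CEBPA, PPARG and LPL. Between 72 h and 48 h they were found for FABP3, LPL and PPARG. CEBPA and PPARG, below the filter, are not among the tested genes that give the shares below. Over all tested genes the libraries did not overlap in 60.0% at 48 h against 0 h, 58.6% at 72 h against 0 h and 38.9% at 72 h against 48 h.

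The wider set of genes around these members was drawn from lists for each step of fat cell formation. Counts called in all lists, those above included, stand beside 27.6% of all tested genes called higher and 22.4% lower at 48 h. At 72 h these shares were 23.0% and 22.5%. Of 13 tested inducers of early adipogenesis, 5 rose and 3 fell at 48 h (median log2 change 0.09, beside 0.02 over all tested genes), and 6 rose and none fell at 72 h (0.18, beside -0.01). The count at 48 h turns round when libraries are set to equal FPKM sums, to 3 higher and 5 lower with a median of -0.02. That scaling also moves all tested genes at 48 h, to 1959 higher and 3691 lower of 11063. With median-ratio size factors and with quantile normalization the count stayed at 5 higher and 3 lower. SREBF1, which drives lipid synthesis and is an insulin target, rose by 1.53 and 1.86 (limma adjusted p = 3.51e-07 and 2.44e-08). KLF15, a PPARG activator, rose by 0.83 at 72 h (limma adjusted p = 0.00179), at means of 3.29 FPKM at 72 h, against 1.42 FPKM at 0 h. ZNF423, which marks cells committed to fat, rose by 0.58 and 0.37 (limma adjusted p = 0.00061 and 0.00766), while KLF4 fell by 0.39 at 48 h and rose by 0.35 at 72 h (limma adjusted p = 0.00327 and 0.00519).

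Of 18 tested inhibitors of adipogenesis, 8 rose and 2 fell at 48 h (median 0.14), and 7 rose and 2 fell at 72 h (median 0.11). Equal FPKM sums turn the count at 48 h to 5 and 5, while median-ratio size factors and quantile normalization kept it at 8 and 2. KLF2, a repressor of PPARG, rose by 1.05 at 72 h (limma adjusted p = 4.11e-05), to 11.0 FPKM against 4.81 FPKM at 0 h. TWIST2, which restrains C/EBP proteins, rose by 0.68 and 0.76 (limma adjusted p = 0.00884 and 0.00497), and SOX9 by 0.95 and 0.74. GATA2, which keeps precursor cells undifferentiated, fell by 0.35 and 0.91 (limma adjusted p = 0.00807 and 1.42e-05). SIRT1, a PPAR gamma repressor, fell by 0.23 at 72 h (limma adjusted p = 0.0421), a call lost under 10 of the alternative settings. DLK1, the classical mark of preadipocytes, averaged at most 0.107 FPKM.

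Genes of mature adipocytes were mostly near 0. Of 24 matched genes, 11 passed the filter, 13 averaged below 1 FPKM at each time, and 5 of these, LEP, RETN, PCK1, ADRB3 and LGALS12, were listed at 0 in every library. PLIN1, the coat protein of the fat cell's lipid droplet, averaged at most 0.0633 FPKM, and SLC2A4, the insulin-responsive glucose transporter, at most 0.0933 FPKM. Among the 11 tested, 5 rose and 3 fell at 48 h (median 0.25) and 4 rose and 4 fell at 72 h (median 0.13). The largest rises were those of genes of fatty acid synthesis that many cell types use: SCD, by 1.93 and 2.42, and FASN, by 1.69 and 1.82. PLIN2, the droplet coat protein of most cells, fell by 0.55 and 0.87 (limma adjusted p = 9.68e-05 and 2.07e-06), and LIPE, a lipase of stored fat, fell by 0.38 at 72 h (limma adjusted p = 0.00506).

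**Figure D4:**
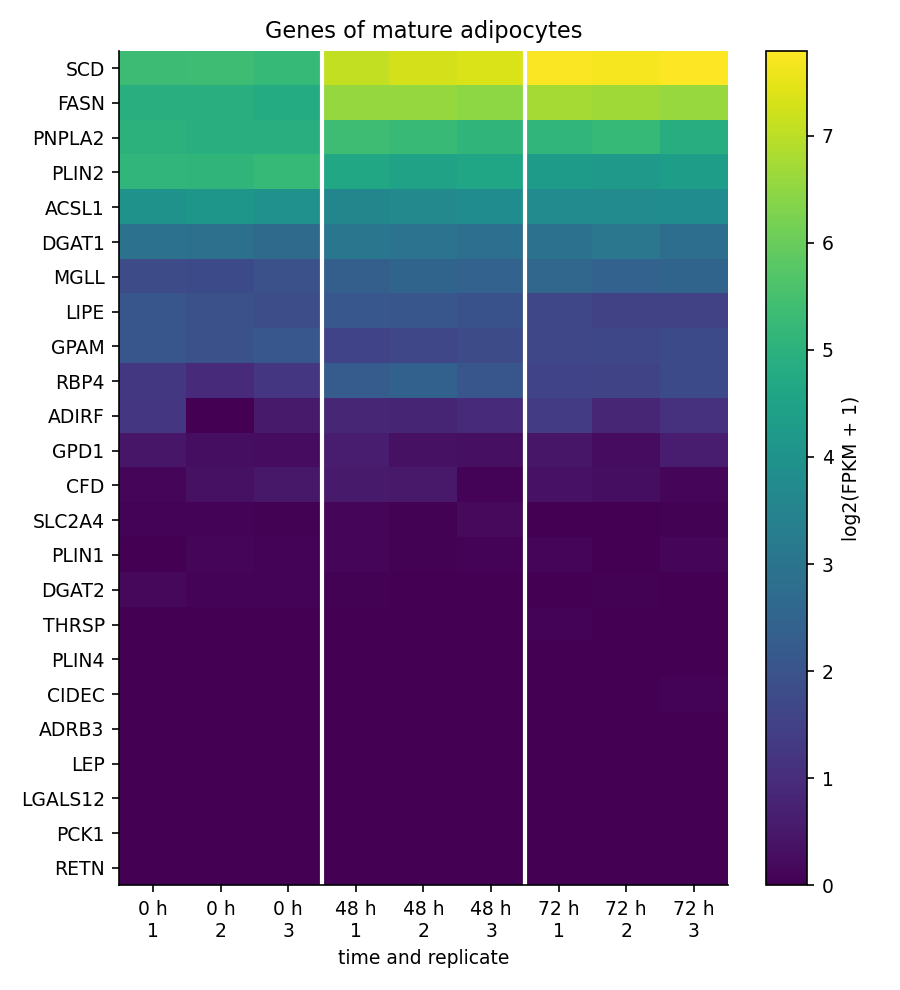
Colour gives log2(FPKM + 1) of the 24 matched genes of mature adipocytes (rows) in each of the 9 libraries (columns, by time and replicate). SCD and FASN grow brighter after 0 h and PLIN2 darker, while 13 genes in the lower rows average below 1 FPKM at each time.

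Of 8 tested target genes shared by the PPARs, 2 rose and 2 fell at 48 h (median 0.09), and 1 rose and 4 fell at 72 h (median -0.23). ANGPTL4 was the one that rose at 72 h. PLIN2 and UCP2, a mitochondrial carrier, had the largest falls, and UCP2 was at 0.327 FPKM at 72 h, against 0.943 FPKM at 0 h (-0.53, limma adjusted p = 0.00571). UCP2 passed the filter only through its 0 h and 48 h libraries, so its fall is a description. HADHA and CPT1A, enzymes of fatty acid oxidation, fell by 0.37 and 0.32 at 72 h. Of 12 tested coregulators of PPARG, 2 rose and 3 fell at 48 h (median -0.18) and 3 rose and 1 fell at 72 h (median about 0). At equal FPKM sums 1 rose and 8 fell at 48 h, where 1959 of all tested genes were higher and 3691 lower. With median-ratio size factors 2 rose and 5 fell at 48 h, and with quantile normalization 1 rose and 4 fell. The share higher at 72 h was near the 23.0% over all tested genes. CITED2 and PRDM16, both coactivators, rose at 72 h by 0.33 and 0.32 (limma adjusted p = 0.000731 and 0.0165), and MED1, a subunit of the mediator complex, fell by 0.36 (limma adjusted p = 0.00541).

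Of 10 tested fatty acid transport proteins and acyl carriers, 4 rose and none fell at 48 h (median 0.22), and 3 rose and 1 fell at 72 h (median 0.02). Beside these, 27.6% of all tested genes were higher and 22.4% lower at 48 h, and 23.0% and 22.5% at 72 h. The share higher at 72 h was near that over all tested genes. SLC27A4, a transport protein with acyl-CoA synthetase activity, rose by 0.47 and 0.49, and DBI, the acyl-CoA binding protein, by 0.61 and 0.58. GOT2, a mitochondrial aminotransferase also found at the cell membrane, fell by 0.29 at 72 h. CAV1, a structural protein of caveolae, was at 90.0 ± 10.7 FPKM at 72 h, against 114 ± 6.59 FPKM at 0 h, and was not called (limma adjusted p = 0.0811).

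C/EBP beta and delta are also known as factors of the acute phase response. Of 12 tested acute phase and cytokine genes linked to them, 6 rose and none fell at 48 h (median 0.30), and 9 rose and 1 fell at 72 h (median 0.66). LCN2, an iron-siderophore binding protein secreted in inflammation, was at 53.5 ± 3.53 FPKM at 0 h, 116 ± 14.2 FPKM at 48 h and 259 ± 39.5 FPKM at 72 h, with changes of 1.10 and 2.25 (limma adjusted p = 3.47e-05 and 7.90e-08). C3, the central complement component, was below 0.13 FPKM in each 0 h library, averaged 1.83 FPKM at 48 h and was at 2.44, 11.59 and 3.42 FPKM in the 72 h libraries (2.38 ± 0.36, limma adjusted p = 0.000344). C3, too, passed the filter only through its later libraries, so its rise is a description though it is in the counts. PTX3, a soluble pattern receptor, fell by 0.76 at 72 h. CD14, a macrophage marker, rose with this group, by 0.82 and 0.83, while the macrophage markers PTPRC, C1QA and CD163 were listed at 0 in every library. The part of such cells in these rises was not tested.

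Glucocorticoids are a known inducer of C/EBP delta, and of 8 tested glucocorticoid response genes 3 rose and 2 fell at each time (medians 0.08 and 0.10). Among all tested genes 27.6% were higher and 22.4% lower at 48 h, and 23.0% and 22.5% at 72 h. ERRFI1, a feedback inhibitor of the EGF receptor, rose by 1.24 at both times, and KLF9 by 0.47 and 0.67. CRISPLD2, a secreted protein, and FKBP5, a chaperone of steroid receptors, fell at 72 h by 0.89 and 0.26.

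**Figure D5:**
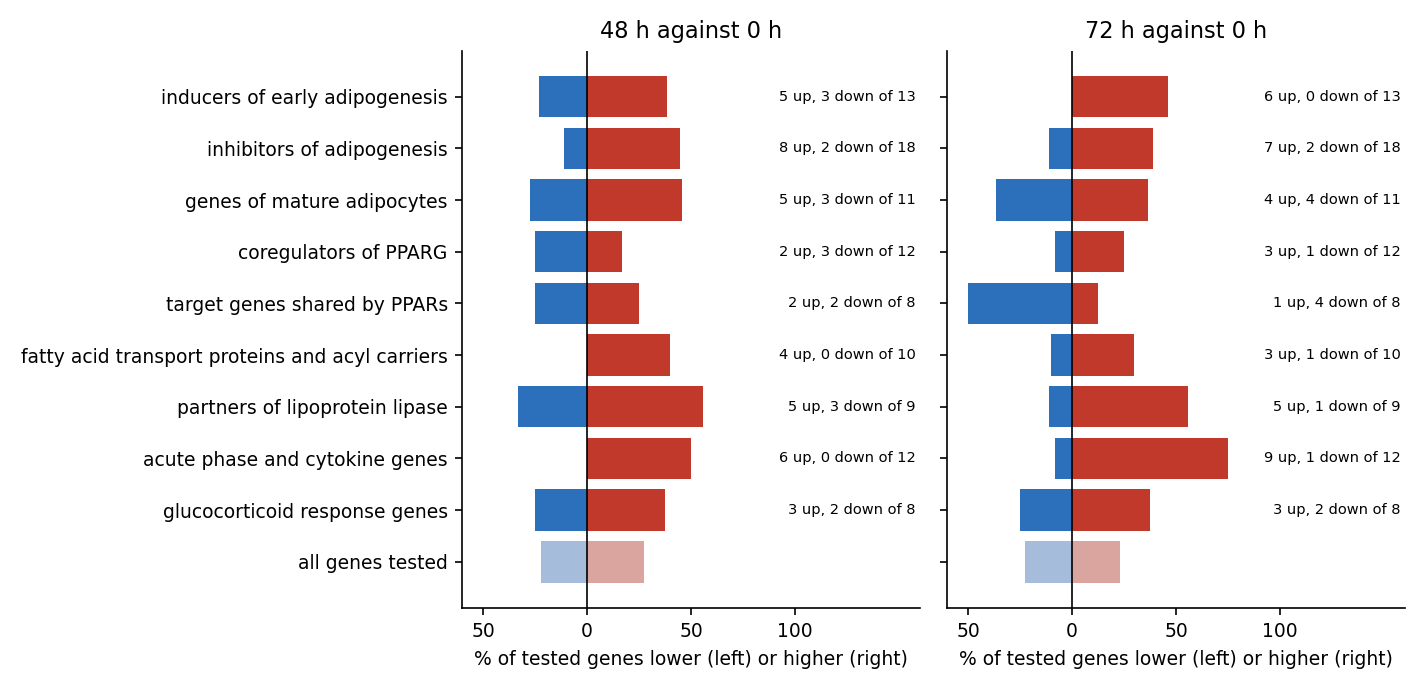
Percent of the tested genes of each list that were called lower (left of 0) or higher (right of 0) at 48 h and 72 h against 0 h, with the counts printed and the share over all 11063 tested genes in the last row. Acute phase and cytokine genes have 9 of 12 higher at 72 h, and target genes shared by PPARs have 4 of 8 lower. The 9 include C3 and the 4 include UCP2, which passed the filter only through the groups where they were high, so both are a description.

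The genes whose profile over the 9 libraries was most like each member were named by the smallest root mean square difference of log2(FPKM + 1) after the 0 h mean was subtracted. For FABP3 these were SCD (0.199) and NUPR1 (0.324), and for CEBPD SCD (0.346) and CCL19 (0.383). For CEBPB they were BRI3 (0.152) and TWIST2 (0.173), both of which were also highest of the 0 h libraries in replicate 2. For FABP5 they were RPS24 (0.0541) and RPL23 (0.0645), ribosomal protein genes whose values can be shared with near-identical copies. For LPL, at its low level, they were LAPTM4A (0.0501) and RAB6A (0.0517).

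The libraries of a time were alike, with a lowest correlation of 0.9896 over tested genes within a group and a highest of 0.9869 between groups. FPKM sums were 487858 to 563656, and relative depth, read from the steps between low values, was 1.30 times that of 0 h replicate 1 in 48 h replicate 3 and 0.953 to 1.09 times in the others. The fibroblast markers COL1A1 and VIM were high, and the 11 tested markers of that list summed to 20149 to 21043 FPKM at 0 h, 18892 to 19516 at 48 h and 20522 to 21106 at 72 h. These sums are mostly COL1A1 and other abundant genes. Of the 11 markers, 7 rose and 3 fell at 48 h (median 0.63), and 8 rose and 1 fell at 72 h (median 0.58). The marker that fell at 72 h was COL1A2, a call lost under 7 of the alternative settings. LUM, a matrix proteoglycan, and PDGFRA, a growth factor receptor, rose most at 72 h, by 1.84 and 1.83 (limma adjusted p = 1.96e-08 and 1.26e-06). The 13 matched macrophage markers summed to 23.9 to 26.1 FPKM at 0 h, 26.0 to 27.5 at 48 h and 26.0 to 28.9 at 72 h, mostly LYZ, without which they were 1.60 to 2.42, 4.2 to 5.26 and 3.69 to 5.51. The 9 matched endothelial markers, with CDH5 at 0, summed to 6.88 to 7.12 FPKM at 0 h, 3.27 to 3.58 at 48 h and 2.62 to 3.55 at 72 h. Most of the 0 h sum was CLDN5, without which they were 0.99 to 1.47, 1.82 to 2.08 and 1.51 to 1.77. Striated muscle markers other than DES, which averaged 1440 FPKM at 0 h, 889 at 48 h and 919 at 72 h, summed to 29.9 to 30.3, 27.1 to 27.4 and 18.5 to 24.8 FPKM, and keratinocyte markers to at most 2.41 FPKM in any library. Of 5 tested striated muscle markers, MYOG was called higher at both later times, DES and ACTA1 lower at both, and ACTC1 lower at 72 h. The part of these cell types in the levels of FABP3, FABP5, PPARG and LPL was not tested, and in RNA from whole cultures fewer cells of a type and less RNA per cell cannot be told apart.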

How the data were processed

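The 9 files hold FPKM values that the authors deposited, as their headers name them. Tools credited in the submitters' processing notes, without role or order, were RSEM 1.2.28, DESeq2, HISAT2 2.1.0 and featureCounts 2.0.2, with the build Sscrofa11.1. The sources used here do not say whether counting used strand. Groups and replicate numbers are those of the labels. FPKM carries no counts, so the depth is unknown and no counting interval or detection limit was computed. The replicate spread alone sets the precision.

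Gene IDs were paired with symbols (14864 of 30477), and coordinates came from RefSeq's table of Sscrofa11.1 by symbol. Values were taken as log2(FPKM + 1). The 11063 genes that reached 1 FPKM in 3 or more libraries entered 1 fit in limma (version 3.58.1 under R 4.3.3). Its term was the group, and the prior variance followed a trend. All 9 libraries entered, so that the groups share 1 estimate of the spread. The 3 pairwise contrasts are two-sided, and p-values were Benjamini-Hochberg adjusted over all tested genes. A gene was called at an adjusted p below 0.05. For single values, 3 libraries against 3 cannot go below p = 0.1 in an exact permutation test, so none was used. Genes below the filter were read from the same fit without the filter, over 19679 genes. Data were also simulated for 9 libraries with each gene's spread within the 3 groups. For 48 h against 0 h, 72 of 100 genes changed by 0.5 and 94 of 100 changed by 1 were called. There were 13 false calls among the unchanged genes of the 11063. Only 100 genes at each size were changed in the simulation, while 5524 genes were called in the data for this comparison. The adjusted p depends on the share of changed genes. Neither the share recovered nor the number of false calls therefore carries over to these data.

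The members, gene lists and tests were chosen with earlier results of these data known. Of each list the 2 called genes with the largest rise and the 2 with the largest fall at 72 h were named, and every gene of lists of at most 8. For each tested member the 2 most similar genes were named too. Other list genes were named after their values were seen. Alternatives varied the pseudocount, the filter, the scaling, the model terms and each library in turn. The values of 1 list gene are not reported here.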

Additional observations from a re-analysis of the deposited data

Results flagged for a closer look

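Among the 5 tested members, FABP3 and LPL were those whose change from 0 h differed between 48 h and 72 h by a test of the difference itself. PPARG, below the filter, was lower at 72 h than at 48 h in the fit without it (-0.66 ± 0.13, limma adjusted p = 0.0160). FABP3 was higher at 72 h than at 48 h by 0.28 ± 0.08 on the log2 scale (limma adjusted p = 0.0323), on top of a rise already present at 48 h. Each 72 h library of FABP3 lay above each 48 h library, but the call was lost when any 72 h library or 48 h replicate 2 was left out. LPL was higher at 72 h than at 48 h by 0.39 ± 0.10 (limma adjusted p = 0.0163), with no change called at 48 h. LPL passed the filter only through its 72 h libraries, so its difference is a description. Its call was lost without 48 h replicate 1 (limma adjusted p = 0.0515). Groups of 3 libraries are too small for a test of single outlying libraries.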

How the results depend on the processing

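The rises of FABP3, CEBPD and FABP5 at 48 h and 72 h against 0 h were called under all 19 alternatives, and so was that of CEBPB at 72 h. Over all member changes, 264 of the values under alternatives kept direction and call, 14 lost the call and 4 changed sign. The sign changes were in uncalled differences: for 48 h against 0 h LPL reached 0.0107 without 48 h replicate 1. For 72 h against 48 h CEBPB was -0.0138 without 48 h replicate 1 and -0.0001 without 72 h replicate 2, with a range of -0.0138 to 0.2416 over single libraries left out, and CEBPD was -0.0687 without 72 h replicate 2, with a range of -0.0687 to 0.413. Of the members, 1 in place of 2 was called for 72 h against 48 h with a mean FPKM of at least 5, and 1 with only those groups in the fit; leaving out a library gave 1 to 2. The number of genes called for 72 h against 48 h, 2814, was 1839 with only those groups in the fit, 5756 with library weights and 1727 to 3693 when a library was left out, lowest without 48 h replicate 2. The CEBPB call at 48 h was also lost without a filter (limma adjusted p = 0.0657), and so was FABP3 for 72 h against 48 h (limma adjusted p = 0.0714), which was lost too with only those groups in the fit (limma adjusted p = 0.0752). Equal FPKM sums moved the median of all genes at 48 h against 0 h by -0.12 on the log2 scale and turned the counts to 1959 higher and 3691 lower, beside 3048 and 2476; the member calls remained. The replicate numbers showed no clear pairing of the libraries. Correlations of same-numbered libraries ran from -0.071 to 0.193 and those of differently numbered libraries from -0.182 to 0.174, so a weak pairing remains possible. With the replicate block 5632 genes were called for 48 h against 0 h (5524 without it), 5152 for 72 h against 0 h (5029) and 3031 for 72 h against 48 h (2814), and the number of members called was as reported in each. Of 197 called changes of list genes, 143 kept their call under every alternative, 54 lost it under at least 1 and none changed sign. The unknown depth limits CEBPA, PPARG, FABP4 and LPL most, at 1.37 FPKM or less. The cause of the lost calls was not tested.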
